A study of Mus musculus with 22 samples.

Results

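Whole dorsal root ganglia (DRG) of mice labelled Postn knockout (KO) were compared with ganglia of wild-type (WT) mice, both after 5 days of vehicle and without imiquimod. The comparison used the 3 KO and the 3 WT vehicle libraries, 6 of the 22 samples of the series, and every gene with enough counts, 17197 of the 55487 listed. The ganglia were taken from spinal levels T10 to L5, and RNA was poly-A selected and sequenced as stranded read pairs. The labels do not describe the knockout allele, the strain, the age or the number of animals behind a library, so the p-values measure the spread between these samples, which may be technical. The 2 KO and 2 WT ganglion libraries from mice given imiquimod (IMQ), a TLR7 agonist applied to the skin to cause psoriasis-like inflammation, entered the same fit and are set beside the vehicle values. WT IMQ library 2 had 0.176 CPM (counts per mega counts) of Xist, which the inactive X expresses, against 217 and 223 CPM in the KO IMQ libraries and 234 CPM in WT IMQ library 1.

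Periostin, the product of Postn, is a secreted matricellular protein that binds integrins, collagen and other matrix proteins, and in connective tissue it takes part in collagen fibril assembly and crosslinking. A DRG holds the cell bodies of sensory neurons, the satellite glia around them, Schwann cells with myelinated axons, and connective tissue with fibroblasts and vessels. Fibroblasts and Schwann cells both lay down matrix, and a myelinating Schwann cell needs a basement membrane of laminins and type IV collagen around it.

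The promoters of the 2 genes that passed the unpaired test are given first, because they are the loci on which that comparison turns. Each run has 250 bases before and 50 bases after the RefSeq start of the gene, 5′ to 3′ on the gene's strand. In build GRCm38.p6 the Postn promoter lies at chr3:54360857-54361156 on the plus strand and the Pdk4 promoter at chr6:5496229-5496528 on the minus strand. The capitals in Postn mark TATAAA, 26 bases before the start, and those in Pdk4 mark CCAAT on the other strand, 131 bases before the start.
Postn: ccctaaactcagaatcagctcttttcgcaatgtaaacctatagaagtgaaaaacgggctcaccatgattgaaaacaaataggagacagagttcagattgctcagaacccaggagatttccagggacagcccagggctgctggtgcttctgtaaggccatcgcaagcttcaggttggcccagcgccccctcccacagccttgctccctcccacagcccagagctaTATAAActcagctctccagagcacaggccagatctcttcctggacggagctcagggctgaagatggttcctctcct
Pdk4: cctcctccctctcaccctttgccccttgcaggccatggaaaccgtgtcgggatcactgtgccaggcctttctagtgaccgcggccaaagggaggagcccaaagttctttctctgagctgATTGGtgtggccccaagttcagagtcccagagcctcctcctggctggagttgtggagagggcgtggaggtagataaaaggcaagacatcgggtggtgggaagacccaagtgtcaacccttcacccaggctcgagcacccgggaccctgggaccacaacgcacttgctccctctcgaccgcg
Both strands were searched. TATAAA was found in 13.6% and CCAAT in 37.4% of 32851 RefSeq promoters of this length, and a match describes these letters only. Postn has 2 promoters in RefSeq, of which 1 is shown.

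The 6 libraries held 17.0 to 22.3 M (mega) counts for KO and 17.3 to 20.0 M for WT. Markers of DRG were present in all 6, with Tubb3 at 1584 to 1848 CPM, the sensory neuron gene Avil at 894 to 1067 CPM, the nociceptor channel Trpv1 at 121 to 157 CPM and the satellite glia gene Fabp7 at 113 to 257 CPM. The largest difference between libraries did not follow genotype. The first principal component held 78.9% of the variance and set KO library 1 (−29.2) and WT library 1 (−23.5) apart from the others (−1.5 to 23.9), while the second, with 10.4%, separated 3 KO libraries (−8.1 to −5.3) from 3 WT libraries (2.6 to 10.8). The slope of log2 level on log2 gene length also differed most in the same libraries, at −0.215 in KO 1 and −0.172 in WT 1, against −0.041 to 0.133 in KO 2 and 3 and 0.064 to 0.079 in WT 2 and 3. Deviations from the group mean correlated at 0.87 and 0.83 between KO and WT libraries numbered 1 and 2, but at 0.16 between those numbered 3. WT library 3 correlated at 0.73 with KO library 2, and no label says that the numbers mark pairs. Genes were tested in an unpaired fit over all 10 ganglion libraries. They were also tested in a paired fit over the 6 vehicle libraries with the replicate number as a block, which takes the numbers as pairs.

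**Figure D1:**
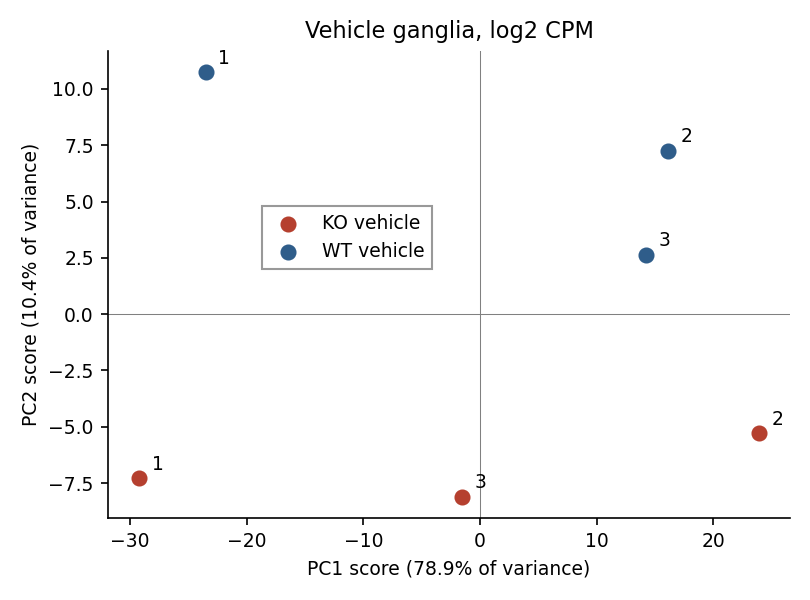
First and second principal component of the 6 vehicle libraries, in score units on log2 CPM, with the replicate number beside each point. Replicate 1 of both genotypes lies at the left, and KO libraries lie below WT libraries.

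Postn and Pdk4 were the genes called in the unpaired comparison, 0.0116% of 17197, both lower in KO (edgeR, adjusted p below 0.05). At an unadjusted p under 0.05 there were 378 genes lower (2.2%) and 152 higher (0.884%) in KO. The paired comparison called 187 of 16503 genes (1.13%), of which 165 (1.0%) were lower and 22 (0.133%) higher in KO. With 6 libraries in 3 pairs, few values bear on the spread of each single gene. The paired p-values therefore rest largely on a spread that edgeR shares across genes. Of these 187 genes, DESeq2 in the paired design called 88, and leaving out replicate pairs 1, 2 or 3 gave 162, 209 and 417 calls, with 83, 113 and 172 of the 187 among them. All 187 kept their sign in these fits, which reuse the libraries from which the 187 were chosen, so the kept sign is no independent check. With the block over all 10 ganglion libraries, where vehicle and IMQ libraries share a replicate number, 3 genes (0.0174%) were called, and DESeq2 without a block called 30 of 17099 (0.175%).

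Postn itself checked the labels. It stood at 3.89, 3.39 and 5.06 CPM in KO libraries 1, 2 and 3, against 20.9, 26.3 and 21.3 CPM in the WT libraries. The genotypes did not overlap, and the KO mean was 18% of the WT mean, so KO ganglia still held Postn reads. The difference was −2.48 ± 0.22 log2 (SE; edgeR adjusted p = 0.011 unpaired, 3.81e-09 paired). Where in the gene the remaining reads lie cannot be read from counts per gene. Without WT 2, KO 1, KO 2 or KO 3 the unpaired adjusted p of Postn was 0.0667, 0.063, 0.0612 and 0.0571. In the IMQ libraries Postn was at 7.43 and 4.38 CPM in KO, against 49.7 and 43.3 CPM in WT. Of the 5 tested genes on either side of Postn, none was called in either fit, and their log2 differences ran from −0.14 to 0.62.

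Pdk4 encodes a kinase that inactivates pyruvate dehydrogenase and is induced in fasting and by glucocorticoids. It was at 7.17, 6.65 and 8.06 CPM in KO libraries, against 23.4, 21.2 and 16.7 CPM in WT libraries. All 3 KO values were below all 3 WT values. The log2 difference was −1.49 ± 0.14 (SE; edgeR adjusted p = 0.0147 unpaired, 3.18e-07 paired). The unpaired adjusted p was 0.125, 0.0866, 0.0953 and 0.103 without WT 2, KO 1, KO 2 and KO 3, and 0.198 in a fit of the vehicle libraries alone. In IMQ ganglia the order was the other way round, with 11.6 and 11.4 CPM in KO against 8.33 and 8.38 CPM in WT. The interaction of genotype and IMQ was 1.95 ± 0.23 for Pdk4, the smallest p of all genes there (edgeR adjusted p = 0.155).

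Tmem267, a gene for a transmembrane protein, passed with the replicate block. It was at 9.84, 9.09 and 13.2 CPM in KO libraries, against 27.4, 21.5 and 28.8 CPM in WT libraries. The log2 difference was −1.27 ± 0.10 (SE; edgeR adjusted p = 3.06e-08 paired, 0.221 unpaired). In IMQ ganglia Tmem267 had 14.1 and 10.1 CPM in KO, against 10.2 and 7.27 CPM in WT, so that the WT vehicle libraries were the high ones among the 4 groups. Ccl28, a mucosal chemokine gene that is the next gene on the same strand of chromosome 13 in GENCODE M21, was also highest in the WT vehicle libraries. It was at 1.15, 1.58 and 1.79 CPM in KO vehicle, against 2.48, 4.98 and 3.30 CPM in WT vehicle, and at 1.28 and 1.42 CPM in KO IMQ, against 1.07 and 0.82 CPM in WT IMQ. Its paired log2 difference was −1.23 ± 0.23 (edgeR adjusted p = 0.00264), from 88 and 203 counts in KO and WT vehicle libraries. The nearby Paip1 and Hmgcs1 had log2 differences of 0.03 and −0.07, with paired adjusted p = 0.947 and 0.829 in edgeR.

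**Figure D2:**
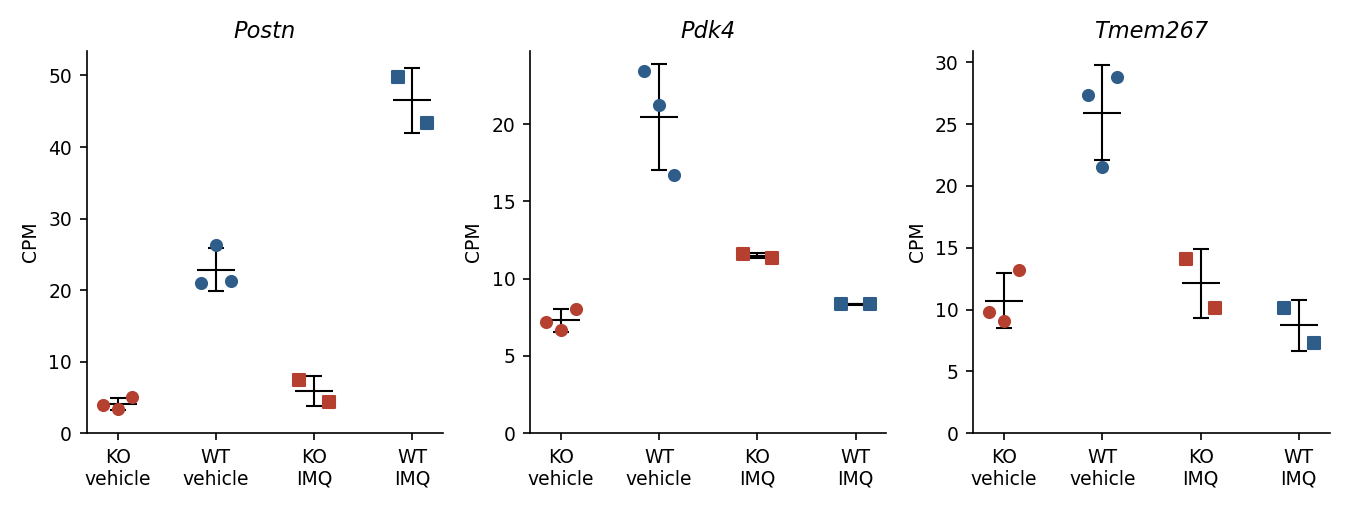
CPM of Postn, Pdk4 and Tmem267 in each library of KO and WT ganglia with vehicle (circles, n = 3 each) and IMQ (squares, n = 2 each), with group mean and SD as bars. Postn is lower in KO in both conditions, and Pdk4 and Tmem267 are lower in KO in vehicle ganglia.

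Matrix genes were grouped by role, beginning with the collagens. Of 16 fibrillar and fibril-associated collagens, 15 had a lower fitted value in KO (45.6% of all genes did), with a median of −0.38 log2 against 0.02 over all genes. The paired test called 8 of 16, all lower (1.0% of all genes were called lower). The KO and WT libraries did not overlap for 6 of 16 (3.89% of all genes lower, 3.01% higher). The unpaired test called none of them, and among the members of all 43 lists it called Postn and Pdk4 only. Without WT library 2 the median was −0.18.

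Col3a1, the chain of type III collagen, was at 151, 163 and 104 CPM in KO libraries, against 250, 281 and 234 CPM in WT libraries. KO lay below WT in every library, with a paired difference of −0.89 ± 0.09 log2 (edgeR adjusted p = 1.25e-06, 0.482 unpaired). The chains of type I collagen had smaller differences, −0.71 for Col1a1 and −0.53 for Col1a2 in the paired fit. Col15a1, a collagen next to basement membranes, was at −0.59, and Col5a1, a regulator of fibril diameter, at −0.55. The adjusted p of these 4 genes ran from 8.6e-06 to 5.4e-04 (edgeR, paired).

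All 14 basement membrane genes tested had a lower fitted value in KO, with a median of −0.36. The paired test called 7, all lower (1.0% of all genes were called lower). Col4a1 and Col4a2 are neighbouring genes that encode the chains of the most common type IV collagen. Col4a1 was at 88.5, 128 and 95.9 CPM in KO libraries, against 161, 184 and 177 CPM in WT libraries, and Col4a2 at 52.4, 68.2 and 55.5 CPM in KO, against 98.9, 96.8 and 96.3 CPM in WT. Neither overlapped between genotypes, and their paired differences were −0.75 and −0.73 (edgeR adjusted p = 7.9e-06 and 8.6e-06). The laminin chains Lama2 (−0.50), Lamb1 (−0.33) and Lamc1 (−0.51), which are joined in the laminin of Schwann cells, were called as well. Without replicate pair 1 the paired test called 3 of 14.

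Among 22 matricellular proteins, Postn included, 20 had a lower fitted value, with a median of −0.27. The paired test called 5, all lower (1.0% of all genes were called lower). Sparc, a collagen-binding protein, was at 1091, 892 and 890 CPM in KO libraries, against 1967, 1350 and 1258 CPM in WT libraries, a paired difference of −0.65. Ccn2, a target of TGF-beta and YAP signalling, differed by −0.68 and fibronectin (Fn1) by −0.52. The tenascin Tnc, which periostin binds, was at 2.25, 3.12 and 2.53 CPM in KO, against 2.37, 5.56 and 4.96 CPM in WT, and did not pass (edgeR paired adjusted p = 0.13).

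Crosslinking and elastic fibre genes were less uniform, with 21 of 28 lower in the fit, a median of −0.15 and 2 called lower in the paired test. Fbn1, the microfibril protein fibrillin-1, was at 22.5, 32.7 and 19.8 CPM in KO libraries, against 41.1, 57.2 and 43.1 CPM in WT libraries, a paired difference of −0.93 ± 0.09 (edgeR adjusted p = 4.61e-07). Lox, the lysyl oxidase that crosslinks collagen and elastin, was at 45.9, 54.8 and 32.7 CPM in KO, against 137, 96.5 and 102 CPM in WT. Lox did not overlap between genotypes and its unpaired difference was −1.33 ± 0.22, past the threshold in DESeq2 (adjusted p = 3.6e-05) and short of it in edgeR (0.26 unpaired, 0.18 paired). Eln, the elastin gene, was at 13.7, 11.3 and 8.59 CPM in KO, against 18.1, 37.2 and 18.7 CPM in WT, and did not pass.

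Receptors and enzymes of the matrix had smaller differences. Of 24 genes of integrin subunits and signalling partners, 18 had a lower fitted value, with a median of −0.09. The paired test called Itgav and Itga6 of this list lower (1.0% of all genes were called lower). Itgav encodes the alpha-v subunit, with which periostin receptors are built, and was at 29.9, 45.5 and 36.0 CPM in KO, against 43.2, 57.4 and 51.8 CPM in WT (paired difference −0.46, edgeR adjusted p = 0.0022). The KO and WT ranges overlapped, and Itgav was lower in KO within each of the 3 pairs. The partner subunits Itgb3 (−0.32) and Itgb5 (−0.21) did not pass in the paired fit, with edgeR adjusted p = 0.2 and 0.37. The list of proteases and inhibitors had 1 call, Mmp2 (−0.36), and the small leucine-rich proteoglycans had 1, Ogn (−0.52). The 21 genes of the TGF-beta pathway had a median of −0.03. Of 16 fibroblast markers 3 were called, all lower and 2 of them collagens, with a median over the list of −0.16 and of −0.0018 without WT library 2, and Pdgfra was at −0.50. In bulk ganglia, fewer cells of a type and less RNA per cell cannot be told apart.

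**Figure D3:**
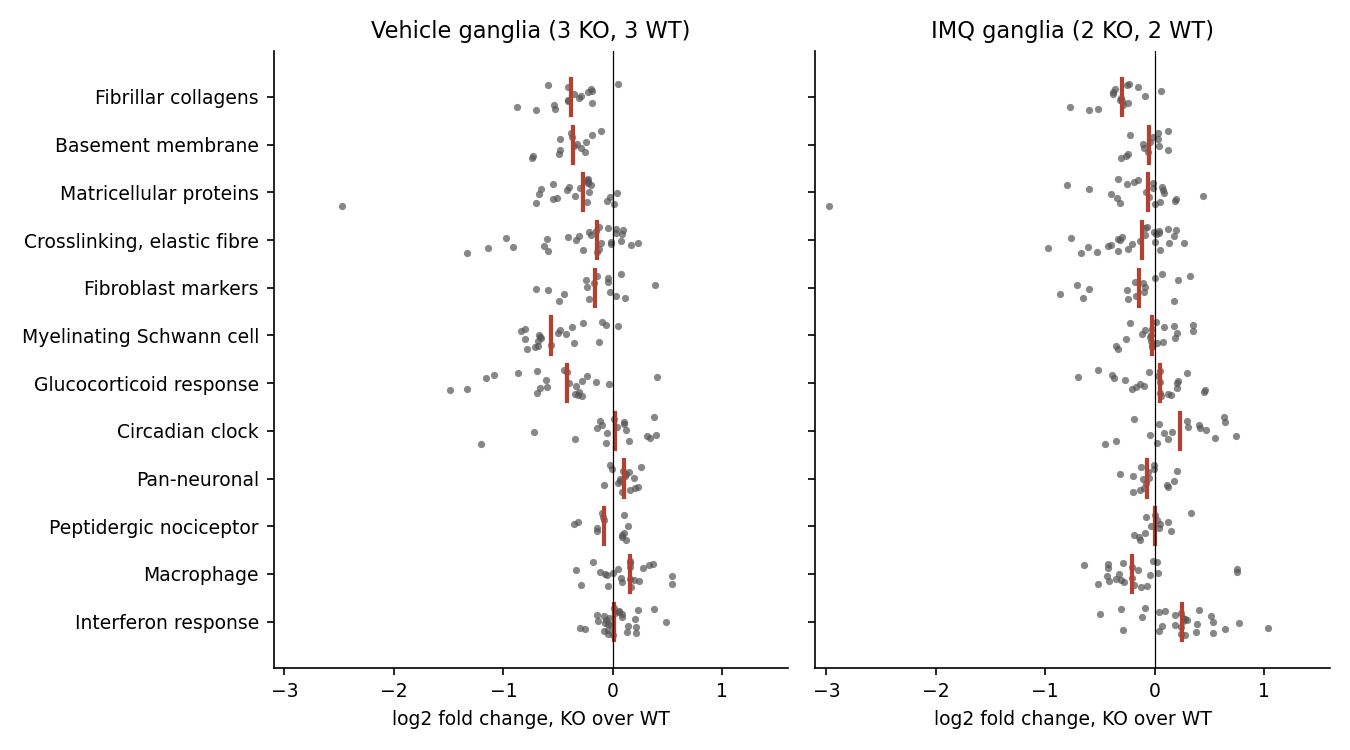
Log2 fold change of KO over WT for each tested member of 12 gene lists (points) with the list median (bars), in vehicle ganglia and in IMQ ganglia, unpaired fit. Collagen medians are −0.38 in vehicle and −0.30 in IMQ ganglia, while the Schwann cell median is −0.56 in vehicle and −0.02 in IMQ ganglia; the IMQ medians rest on 2 libraries a group.

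Myelin genes had the lowest median of the glial and matrix lists. Of 21 myelinating Schwann cell genes, 20 had a lower fitted value in KO, with a median of −0.56 (−0.66 to −0.41 with single libraries left out). The paired test called 12, all lower (1.0% of all genes were called lower). The libraries did not overlap for 13 of 21, all lower (3.89% of all genes lower, 3.01% higher). Without replicate pair 2 the paired test called 7 of 21, as did DESeq2 with the block. The summed level was 9323, 7865 and 8705 CPM in KO libraries, against 17245, 11781 and 11407 CPM in WT libraries. WT library 1 stood highest, and all 3 WT libraries were above all 3 KO libraries.

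Ugt8a and Fa2h make the galactolipids of myelin. Ugt8a was at 74.7, 94.3 and 72.8 CPM in KO, against 154, 143 and 124 CPM in WT (−0.80, edgeR paired adjusted p = 3.7e-06), and Fa2h differed by −0.79 (1.2e-06). Drp2, a scaffold protein of the Schwann cell membrane, Mal, a myelin proteolipid, and Ncmap, a peripheral myelin protein, were called at −0.65, −0.65 and −0.64. Egr2, the transcription factor of myelination, was at 15.2, 17.0 and 28.6 CPM in KO, against 41.0, 37.9 and 30.0 CPM in WT, and did not pass (edgeR paired adjusted p = 0.7). Of 12 genes of non-myelinating and repair Schwann cells none was called, and their median was −0.06. Of 27 cholesterol and fatty acid synthesis genes, which supply myelin lipids, the paired test called Lss (−0.38) and Elovl1 (−0.41).

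Markers of the tissues around a ganglion differed between libraries. The 14 skeletal muscle genes summed to 145, 117 and 96.8 CPM in KO libraries, against 336, 76.0 and 228 CPM in WT libraries, so WT 1 and WT 3 were high and WT 2 was the lowest of all 6. Of the 14 genes, 13 had a lower fitted value in KO, with a median of −2.40 log2, the lowest of the 43 lists. This median ran from −3.65 to −1.72 with single libraries left out. No gene of the list separated the genotypes, and the paired test called 1 lower, Casq1. Cacna1s, a calcium channel gene of skeletal muscle, was also called lower (−1.94, edgeR paired adjusted p = 0.012). The 9 erythroid genes summed to 557, 93.1 and 138 CPM in KO, against 179, 206 and 199 CPM in WT, and the 12 neutrophil genes to 364, 34.7 and 65.2 CPM in KO, against 76.0, 117 and 111 CPM in WT, with KO library 1 high for both. The 14 meninges and perineurium genes summed to 1231, 630 and 700 CPM in KO, against 1187, 1018 and 871 CPM in WT. Mog and Opalin, made by oligodendrocytes of the spinal cord, had 0 or 1 counts in each library. Mobp, on the list of spinal cord oligodendrocyte and astrocyte genes, had 13, 33 and 13 counts in KO, against 35, 33 and 34 in WT. Of the 7 genes tested in that list, 2 had a lower and 5 a higher fitted value in KO (median 0.03). None was called in either fit. The part of muscle, blood and nerve coverings in these results was not tested.

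**Figure D4:**
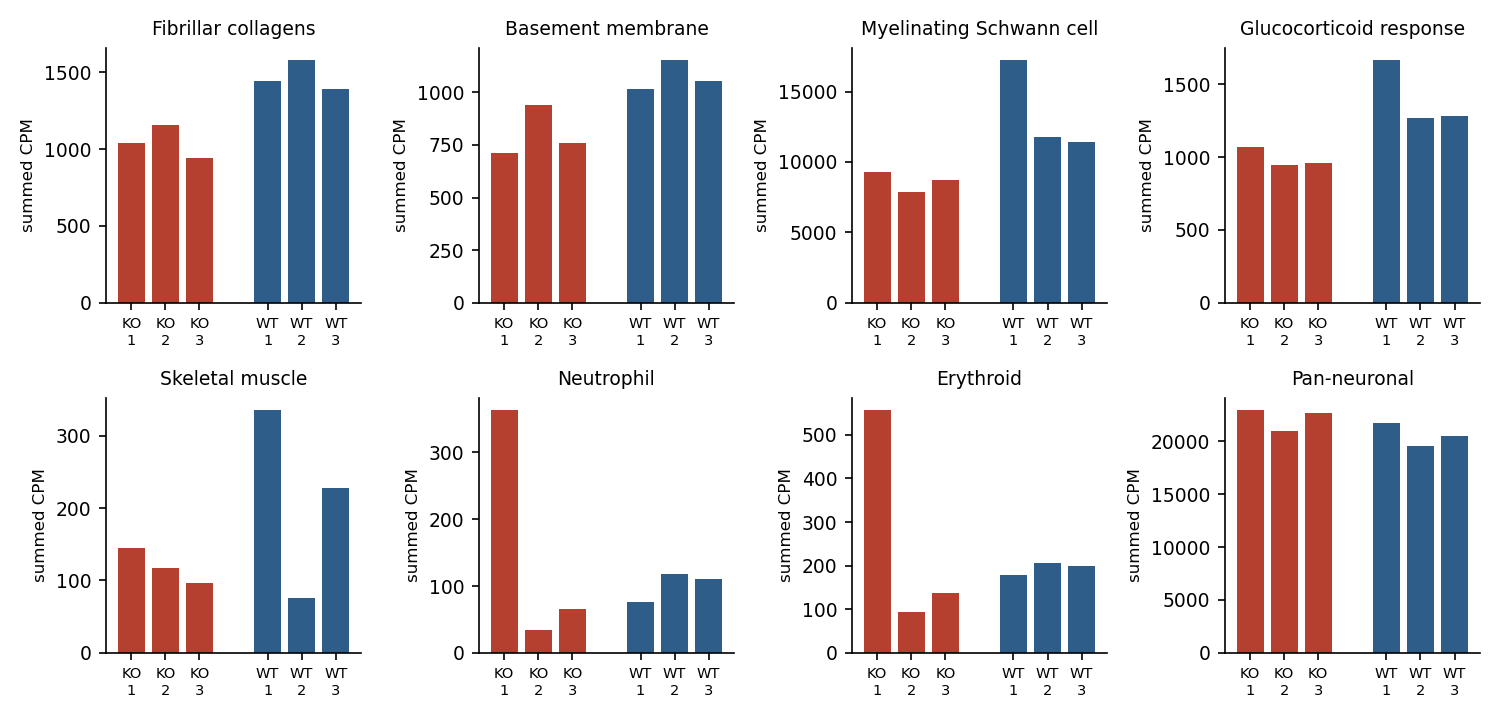
Summed CPM of 8 gene lists in each vehicle library, KO 1 to 3 left and WT 1 to 3 right, with each axis starting at 0. Collagen, basement membrane, myelin and glucocorticoid sums are lower in all 3 KO libraries, muscle is high in WT 1 and WT 3, and neutrophil and erythroid sums are high in KO 1.

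Of 23 glucocorticoid-responsive genes tested, 22 had a lower fitted value in KO, with a median of −0.42. The paired test called 10, all lower (1.0% of all genes were called lower). The libraries did not overlap for 14, all lower (3.89% of all genes lower, 3.01% higher). The unpaired test called Pdk4 alone. Without replicate pair 3 the paired test called 19, while its lower calls over all genes rose from 165 to 335. Hif3a, a hypoxia-inducible factor subunit, was at 5.65, 5.11 and 3.37 CPM in KO libraries, against 13.8, 11.2 and 10.5 CPM in WT libraries (paired −1.34, edgeR adjusted p = 2.2e-06). Cdkn1a, the cell cycle inhibitor p21, was at 67.6, 63.0 and 64.3 CPM in KO, against 107, 90.7 and 98.2 CPM in WT (−0.60, 3.9e-05). The phagocytic receptor gene Mertk (−0.68), Fam107a (−0.68) and Arrdc2 (−1.03) were called too. Klf15, a transcription factor induced by glucocorticoids and outside the list, was at 15.9, 10.5 and 11.7 CPM in KO, against 30.2, 24.4 and 19.2 CPM in WT (−0.95, edgeR paired adjusted p = 3.7e-06). Pdk4 belongs to this list, and some members belong to other lists as well.

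Metabolic and clock genes were set beside the share over all genes, of which the paired test called 1.0% lower and 0.133% higher. Of 28 PPAR and fasting targets the paired test called 4, all lower, among them Pdk4, the transcription factor gene Foxo1 (−0.56) and Fabp4 (−0.84), a fatty acid carrier. Of 25 pyruvate dehydrogenase and glycolysis genes none was called, and their median was 0.02. Of 18 circadian clock genes the paired test called Arntl, Nr1d1 and Per1 lower and Cry1 higher. Arntl, which encodes the clock activator BMAL1, was at 2.25, 2.35 and 2.16 CPM in KO libraries, against 4.50, 4.40 and 6.71 CPM in WT libraries (−1.18 ± 0.20, edgeR paired adjusted p = 0.000877). The repressor gene Cry1 was at 17.7, 17.6 and 18.6 CPM in KO, against 12.8, 14.3 and 13.9 CPM in WT (0.40, 0.047). The hour at which ganglia were taken is not given in the labels.

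F3 was among the genes with the smallest p of those lower in KO. This gene for tissue factor, which starts coagulation, was at 27.3, 29.1 and 28.1 CPM in KO libraries, against 46.7, 46.4 and 41.3 CPM in WT libraries (paired −0.67, edgeR adjusted p = 3.2e-05). Angpt2, a ligand that opposes Tie2 signalling in vessels, was at 16.7, 22.3 and 18.7 CPM in KO, against 28.9, 32.0 and 36.7 CPM in WT (−0.76, 3.2e-05). Rhoj, a small GTPase of endothelial cells, differed by −0.77 (9.7e-05). None of 15 endothelial markers was called, and their median was −0.05. Other genes lower in the paired test were Prrg3 (−0.89), Slc9a3, a sodium-hydrogen exchanger (−1.27), Slc20a2, a phosphate transporter (−0.64), the serine protease Prss23 (−0.60), the cytokine Il16 (−0.63), the lipid-binding protein Sec14l5 (−0.72) and the secreted matrix protein Spon2 (−1.07), with adjusted p between 1e-05 and 0.0025 in edgeR.

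Fewer genes were higher in KO. Slc15a2, a peptide transporter of glia and epithelia, was at 13.5, 25.3 and 14.9 CPM in KO libraries, against 4.32, 3.04 and 2.90 CPM in WT libraries. The groups were far apart, with a paired difference of 2.36 ± 0.27 log2 (edgeR adjusted p = 0.0327, 0.142 unpaired; DESeq2 3.96e-10). In IMQ ganglia Slc15a2 was at 5.16 and 7.99 CPM in KO, against 10.7 and 6.27 CPM in WT. Nle1, a gene for a ribosome assembly factor, was at 8.81, 6.60 and 7.32 CPM in KO, against 4.02, 3.72 and 3.00 CPM in WT (paired 1.08, edgeR adjusted p = 0.000288), and its KO libraries were also the higher ones with IMQ, at 6.32 and 5.21 CPM against 4.06 and 3.05 CPM in WT.

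The flavin monooxygenase genes Fmo1 and Fmo2 rose in the paired test, Fmo1 by 0.53 and Fmo2 by 0.80 (edgeR adjusted p = 0.00039 and 0.000115). Fmo2 was at 30.8, 54.5 and 29.0 CPM in KO libraries, against 16.2, 26.8 and 21.5 CPM in WT libraries, and at 26.8 and 42.6 CPM in KO IMQ, against 19.5 and 20.2 CPM in WT IMQ. Ccr2, the receptor that draws monocytes to tissue, was at 10.3, 8.91 and 8.32 CPM in KO, against 5.56, 6.34 and 5.41 CPM in WT (0.66, 0.012). Myoc, a secreted olfactomedin-domain protein, and Sclt1, a protein of centriole appendages, were called at 0.64 and 0.76.

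Some higher genes have close copies, and their reads may be split between them. Xlr4a, one of a cluster of near-identical X-linked genes, had 116 counts over the KO libraries and 7 over the WT libraries, at 1.15, 2.67 and 2.00 CPM in KO, against 0.177, 0.21 and 0 CPM in WT. Its paralog Xlr3b was at 7.29, 12.1 and 11.1 CPM in KO, against 5.62, 2.62 and 5.16 CPM in WT, and in IMQ ganglia at 5.69 and 4.74 CPM in KO, against 10.5 and 14.5 CPM in WT. Xlr3b did not pass in edgeR (adjusted p = 0.566 paired, 0.843 unpaired) and passed in DESeq2 (0.0493). Gm8210, a processed pseudogene for which RefSeq lists Rpl29 as a synonym, had 143 counts in KO and 5 in WT vehicle libraries. Rpl29, the ribosomal protein gene itself, was at 156, 73.4 and 105 CPM in KO, against 272, 137 and 141 CPM in WT (paired −0.71, edgeR adjusted p = 3.9e-05). Gm8210 was at 5.16 and 0 CPM in the KO IMQ libraries, against 0.102 and 0 CPM in WT IMQ libraries, and Rpl29 at 27.8 and 128 CPM in KO IMQ, against 179 and 158 CPM in WT IMQ.

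Calls in the neuronal lists were set beside the paired share over all genes, 1.0% lower and 0.133% higher. At that share a list of this size may hold no call. Of 16 pan-neuronal genes none was called, and the median was 0.10, with a summed level of 22989, 21020 and 22726 CPM in KO libraries, against 21697, 19518 and 20546 CPM in WT libraries. None of 13 peptidergic nociceptor genes (median −0.08) and none of 15 mechanoreceptor and proprioceptor genes (0.10) passed. Of 19 non-peptidergic nociceptor and itch receptor genes, the itch cytokine receptor Il31ra was called lower, at 20.5, 37.9 and 32.3 CPM in KO, against 31.4, 45.8 and 48.6 CPM in WT (paired −0.48, edgeR adjusted p = 0.0027). KO and WT overlapped, and each KO library was below the WT library of its pair. Of 27 excitability channels, Hcn2, a pacemaker channel, was called higher, at 77.8, 70.9 and 88.2 CPM in KO, against 61.8, 58.6 and 71.8 CPM in WT (0.30, 0.049). Satellite glia genes had a median of −0.02, and none of 18 nerve injury genes passed.

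Immune lists had no calls in either fit. The paired test called 1.13% of all genes, and at that share lists of this size may hold no call. Outside the lists, Ccr2 was called higher and Il16 lower in the paired test. The unpaired medians were 0.15 for 23 macrophage genes, 0.01 for 28 interferon response genes, 0.11 for 13 lymphocyte genes, 0.01 for 23 cytokine, chemokine and acute phase genes, 0.27 for neutrophil genes and 0.38 for mast cell genes. Fewer members had enough counts for the paired fit, among them 9 lymphocyte and 18 cytokine, chemokine and acute phase genes. Paired medians were 0.14 for macrophage, −0.03 for lymphocyte, −0.01 for neutrophil and 0.41 for mast cell genes. Without KO library 1, the one with high neutrophil and erythroid sums, the medians were −0.01 for macrophage, −0.54 for lymphocyte and −0.99 for neutrophil genes. Genes of oxidative phosphorylation and of cytosolic ribosomes had medians of 0.17 and 0.12 with no call, and these ranged from −0.14 to 0.48 and from −0.23 to 0.45 when single libraries were left out.

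The IMQ libraries hold the same contrast of KO and WT; they entered the unpaired vehicle fit through its shared spread and had no part in the paired fit. Postn was the 1 gene called there (0.00581% of 17197; 318 genes at an unadjusted p under 0.05), and its adjusted p was 0.127, 0.0874 and 0.0976 in edgeR without KO IMQ 2, WT IMQ 1 and WT IMQ 2. Of the 165 genes lower in the paired vehicle test, 93 had a lower and 72 a higher fitted value in KO IMQ than in WT IMQ ganglia (50.4% of all genes were lower). Their median was −0.03 there, in the unpaired fit, and −0.52 in vehicle ganglia, in the paired fit. These genes were chosen by their vehicle values, which selection tends to make larger, so the medians are not compared on equal terms. The same holds for the higher genes and for the list members below. Without WT IMQ 2, the library without Xist, the fitted value was lower for 60 and higher for 105 of them (median 0.09), and without WT IMQ 1 the counts were 112 and 53, with a median of −0.14. Their KO and WT IMQ libraries did not overlap for 26 in the same direction and for 23 in the opposite one, where 17.0% of all genes were lower and 16.2% higher without overlap. Of the 22 higher genes, 12 were higher and 10 lower, with a median of 0.04 against 0.55 in the paired vehicle fit. Their IMQ libraries did not overlap for 7 in the same direction and for 1 in the opposite one. No gene was called for the interaction of genotype and IMQ (edgeR; 364 at an unadjusted p under 0.05, 5 called by DESeq2).

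The median IMQ difference of the collagens depended on WT IMQ 2. All 8 collagens called in vehicle ganglia had a lower fitted value in KO IMQ, with a median of −0.31, against −0.53 in vehicle ganglia. Without WT IMQ 2, 5 of the 8 were lower and the median was −0.09. Col3a1 was at 276 and 226 CPM in KO IMQ libraries, against 392 and 464 CPM in WT IMQ libraries, without overlap, and Fbn1 at 42.5 and 37.2 CPM in KO, against 64.1 and 57.6 CPM in WT. Without WT IMQ 2 their log2 differences were −0.64 and −0.69, and neither gene passed in any of these IMQ fits. The 12 myelin genes had a median of −0.03 in IMQ ganglia, against −0.68 in vehicle ganglia, and of 0.17 without WT IMQ 2 and −0.26 without WT IMQ 1. Ugt8a was at 65.3 and 68.7 CPM in KO IMQ libraries, against 65.1 and 95.2 CPM in WT IMQ libraries. The 10 glucocorticoid-responsive genes had a median of −0.06 (−0.13 to 0.09 with single IMQ libraries left out), against −0.68 in vehicle ganglia. Klf15 was at 11.9 and 11.2 CPM in KO IMQ, against 11.0 and 10.1 CPM in WT IMQ. In the unpaired edgeR fit the difference between the vehicle and IMQ contrasts was not called for any of these genes. The smallest adjusted p among them in that fit was that of Pdk4.

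**Figure D5:**
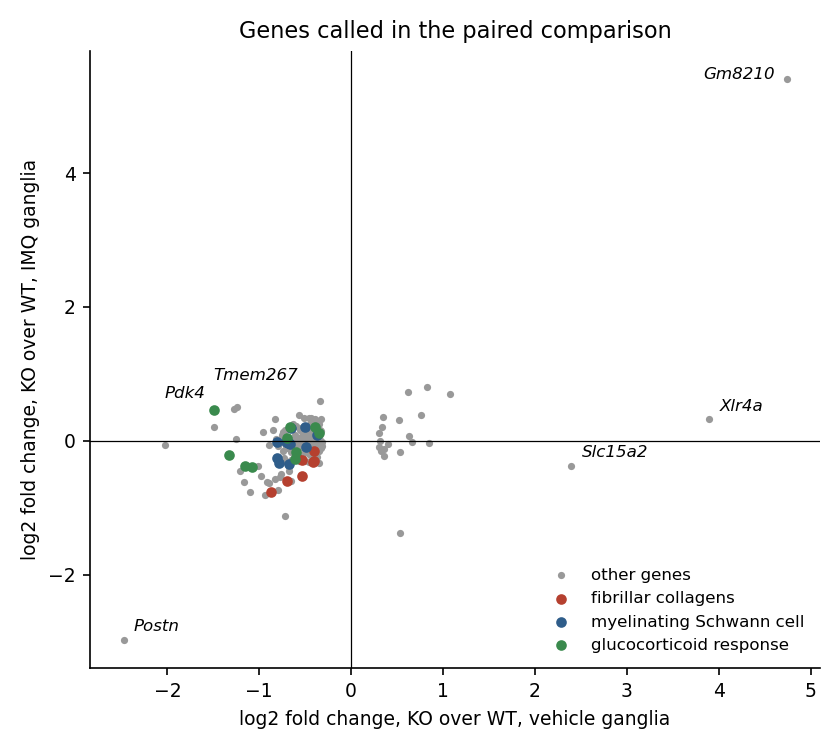
Log2 fold change of KO over WT in vehicle ganglia (horizontal) and in IMQ ganglia (vertical), unpaired fit, for the genes called in the paired vehicle comparison. Postn is low on both axes, the collagens lie below 0 on both (5 of 8 without WT IMQ 2), and the myelin and glucocorticoid genes lie around 0 on the vertical axis.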

How the data were processed

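The authors deposited raw read counts per Ensembl gene, without normalization. Per the submitters' processing notes, the build was GRCm39 and the tools were TopHat2, Bowtie2 2.2.3 and HISAT2 2.1.0; the counter, strand setting and annotation release are not stated there. Symbols came from GENCODE M21 (55141 of 55487 IDs). The 10 ganglion libraries were fitted in 4 groups with edgeR 4.0.16 (quasi-likelihood, robust, filterByExpr, TMM; R 4.3.3, Python 3.11.15), two-sided, and p was adjusted by Benjamini-Hochberg over the genes tested. SE is the log2 fold change over the square root of F. CPM are on TMM-scaled library sizes. Alternatives were DESeq2 1.42.0, RLE scaling, no filter, a gene length offset, a replicate block and left-out libraries. The fits were tested on simulated data.

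Counts of replicate libraries differed beyond counting error, with a chi-square over degrees of freedom of 3.49 to 74.4. Residuals of same-numbered KO and WT vehicle libraries correlated at 0.87, 0.83 and 0.16 across 10815 genes, each above the limit of 0.1 for pairing; genes are not independent replicates. WT library 3 correlated at 0.73 with KO library 2, and no label says what a replicate number marks. The paired fit took the 6 vehicle libraries alone; its own alternatives were chosen after seeing the data.

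The genes, lists and tests were chosen with earlier results of these data known. Named genes are Postn and its 5 tested neighbours on either side, the calls of the unpaired fit, the 10-library block and DESeq2, the 10 genes per direction with the smallest p, no overlap and a mean of at least 1 CPM, and up to 6 members of each list by p. Itgb5, Fmo2, Gm8210, Rpl29, Ccl28, Paip1 and Hmgcs1 were chosen after their values were seen. Not every gene so named is described. Some of them are not reported here.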

Additional observations from a re-analysis of the deposited data

How the results depend on the processing

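The number of genes called for KO against WT in vehicle ganglia was 2, and 22 without a filter on low counts, 1 with only the libraries compared, 4 with a gene length offset, 19 with that offset and the replicate block, 30 with DESeq2 and 0 to 2 with single libraries left out. The replicate block gave 3 over 10 libraries and 187 over the 6 vehicle libraries. Those 187 were 381 without a filter, 92 with DESeq2 and 162 to 417 with a replicate pair left out. In IMQ ganglia 1 gene was called, and 2 without a filter, 5 with only the libraries compared, 4 with DESeq2 and 0 to 1 with a library left out, where the 1 call without WT IMQ 1 was Xist. The interaction called 0, and 2 without a filter, 1 with the length offset, 5 with DESeq2 and 0 to 1 with a library left out. Of 1215 alternatives for single genes, 1077 kept direction and side of the threshold, 127 passed it newly, 9 lost it (all of them Postn or Pdk4) and 2 turned, both without KO library 1: Paip1 ran from −0.025 to 0.069 and Hmgcs1 from −0.20 to 0.015 with single libraries left out. Of 559 alternatives for list medians, 37 moved by more than the replicate spread. The cause was not tested.

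The IMQ groups had 2 libraries each, and leaving out 1 assumes that the lone library varies like the other groups. The smallest called difference in the paired fit was 0.30 log2 among higher genes and −0.32 among lower ones. The number of calls rests on taking the replicate numbers as pairs and on which libraries are fitted. With the block it was 3 over the 10 ganglion libraries and 187 over the 6 vehicle libraries.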
